A study of Mus musculus with 2 samples.

Results

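The ubiquitin-conjugating enzymes were taken as all genes of the Affymetrix MG430 array whose symbol begins with Ube2 and that the platform annotation names alone for a probe set (the oligonucleotides designed against a transcript). This gave 33 genes on 81 probe sets, of 18194 genes on 34958 probe sets named in this way. Signals were compared between RXRγ mice, C57BL6 mice of line 4-3 that carry an RXRγ transgene under the human α-actin promoter and overexpress this nuclear receptor in skeletal muscle, and non-transgenic C57BL6 control mice. All were females at 4 months of age, and skeletal muscle RNA was pooled within each genotype (5 animals per pool by the series description, 3 by the extraction protocol) and hybridized to 1 array per genotype. With 1 array on each side there is no estimate of error, so nothing was tested between genotypes and every difference is a description of these pools.

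Ubiquitin is activated by an E1 enzyme, handed to the active-site cysteine of an E2 enzyme, and attached to a substrate with the help of an E3 ligase. The E2 enzyme largely decides which kind of ubiquitin chain is built, and some E2 enzymes carry ubiquitin-like proteins such as NEDD8 in its place. In skeletal muscle the pathway is best known for the breakdown of myofibrillar proteins by the proteasome during atrophy, in which the E3 ligases atrogin-1 (Fbxo32) and MuRF1 (Trim63) and the E2 enzyme encoded by Ube2b are induced.

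A probe set was used when its signal was above 250 on the brighter array, and the log2 ratios of RXRγ over control mice were averaged over the passing probe sets of a gene. Of the 33 Ube2 genes, 19 were measured in this sense, on 37 probe sets, of which 1 passed only through the array of RXRγ mice and 2 only through that of control mice. Of the 19, 4 had a log2 ratio of 0.4 or more, the threshold used throughout, and were thus higher in RXRγ mice, namely Ube2g2, Ube2v1, Ube2n and Ube2f. Another 4 were lower by at least as much, namely Ube2b, Ube2d1, Ube2r2 and Ube2v2, and the remaining 11 stayed within 0.4. Over all 3780 genes measured in the same way, 16.8% were higher and 20.1% were lower, against 21.1% in each direction among the Ube2 genes. The shares of the family were close to this background, so the counts do not set it apart from other genes. The median log2 ratio was -0.08 over the Ube2 genes and -0.04 over all genes. With quantile normalization 5 of 20 Ube2 genes were higher and 3 were lower, against 668 and 722 of all 3789 genes (17.6% and 19.1%). With median scaling 4 of 19 Ube2 genes were higher and 5 were lower, against 490 and 986 of all 3708 genes (13.2% and 26.6%). The counts over all genes as reported were 636 higher and 760 lower.

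**Figure D1:**
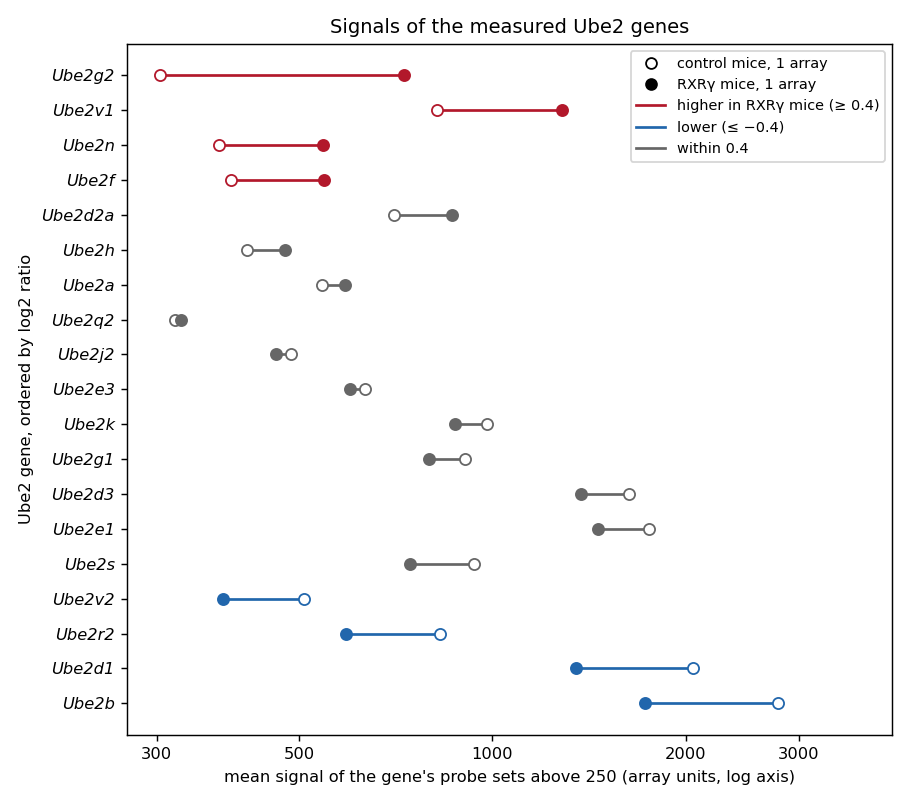
Mean signal of the probe sets above 250 of each of the 19 measured Ube2 genes, in array units on a log axis, with open circles for control mice and filled circles for RXRγ mice (1 array each), with genes ordered by log2 ratio. Red marks the 4 genes called higher, from Ube2f to Ube2g2 (303.2 in control mice and 728.7 in RXRγ mice), blue the 4 lower ones, from Ube2v2 to Ube2b, and grey the 11 others.

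The array of RXRγ mice carried the transgene product, with a signal of Rxrg of 9172.1 against 334.5 in control mice (27.4-fold). All 12 marker genes of muscle fibres had a signal above 250, and 11 of them were lower in RXRγ mice (summed signal 104162.8 against 120422.4). They did not move together: Myh7, the slow myosin heavy chain, was at 303.2 against 1754.4 and Myh2, that of type IIa fibres, at 5703.3 against 9977.6, while Myh4, that of type IIb fibres, was at 11145.4 against 11631.1 and Des was higher (5190.8 against 3988.4). Of the markers of other cell types, those of fibroblasts summed to 12030.5 against 10190.8 with 5 of 6 higher and Lum furthest from 0 (1770.8 against 699.1). Adipocyte markers summed to 6494.4 against 5947.6 with 4 of 5 higher, although 2 of the 5 were under 150 on both arrays. Macrophage and leukocyte markers summed to 1434.9 against 1193.0 with 7 of 7 higher, although 5 of the 7 were under 150 on both arrays. Those of endothelial cells summed to 683.7 against 865.3, with 0 of 6 higher, and the 3 satellite cell markers to 259.5 against 219.9, and 0 of these 9 markers reached 250. Of the 6 erythroid markers listed, only 2 had a probe set named for them alone. These 2 and all 9 markers of proliferating cells with such a probe set were under 150 on both arrays. In whole muscle, fewer cells of a type and less RNA per cell cannot be told apart, and the part of these differences in the results on the Ube2 genes was not tested.

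Because RXRγ is a transcription factor and the study searched promoters for binding motifs, the sequences before the transcription starts of 2 higher and 2 lower genes are shown. They are the 250 bases upstream of the RefSeq start, of GRCm38.p6, for Ube2v1 (chr2:167632006-167632255, minus strand), Ube2n (chr10:95514912-95515161, plus strand), Ube2b (chr11:52000787-52001036, minus strand) and Ube2d1 (chr10:71285263-71285512, minus strand). For Ube2b, which has 2 annotated starts, the upstream one was taken. Capitals mark the nuclear receptor half-site AGGTCA, the GC box GGGCGG and the ETS core CCGGAAG, each on either strand.
Ube2v1: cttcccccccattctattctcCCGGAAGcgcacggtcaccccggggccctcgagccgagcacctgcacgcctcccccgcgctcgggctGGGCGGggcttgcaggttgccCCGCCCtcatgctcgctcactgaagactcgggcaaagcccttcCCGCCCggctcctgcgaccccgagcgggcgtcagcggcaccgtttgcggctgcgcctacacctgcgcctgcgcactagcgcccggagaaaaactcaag
Ube2n: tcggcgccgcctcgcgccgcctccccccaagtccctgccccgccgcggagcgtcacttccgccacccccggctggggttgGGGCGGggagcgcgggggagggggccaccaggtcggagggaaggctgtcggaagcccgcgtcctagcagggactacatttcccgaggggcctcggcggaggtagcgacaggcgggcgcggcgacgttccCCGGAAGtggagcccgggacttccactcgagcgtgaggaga
Ube2b: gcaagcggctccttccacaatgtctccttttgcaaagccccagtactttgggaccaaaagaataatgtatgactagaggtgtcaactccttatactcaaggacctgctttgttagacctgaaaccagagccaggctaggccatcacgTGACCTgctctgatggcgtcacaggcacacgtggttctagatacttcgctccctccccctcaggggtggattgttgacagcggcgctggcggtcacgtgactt
Ube2d1: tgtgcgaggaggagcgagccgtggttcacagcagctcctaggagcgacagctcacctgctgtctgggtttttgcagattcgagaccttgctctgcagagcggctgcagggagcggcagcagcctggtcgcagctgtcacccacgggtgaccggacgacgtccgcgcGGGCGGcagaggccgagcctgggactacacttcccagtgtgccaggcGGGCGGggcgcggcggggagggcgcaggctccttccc

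The promoters of Ube2v1 and Ube2n are rich in G and C (70.8% and 74.8% of bases), and each holds 1 ETS core, with 3 GC boxes in Ube2v1 and 1 in Ube2n. The stretch of Ube2b holds none of these but 1 half-site, and that of Ube2d1 holds 2 GC boxes. What is seen for Ube2b depends on the start taken, since the window of its other start holds 2 GC boxes and 1 ETS core and no half-site. Over windows of 300 bases, from 250 before to 50 after the start, 36 windows of 27 Ube2 genes were in the RefSeq table, and Ube2g2 and Ube2v2 were not among them. Matches were counted at each position on either strand; of the motifs searched, only the direct repeat DR1 contains another, the half-site. The half-site was present in 8 of the 36 windows (22.2%), against 16.3% of all windows, and in 26.1% of the 23 windows of measured Ube2 genes, against 13.3% of the windows of all measured genes. DR1, a pair of half-sites with 1 base between them that RXR binds together with PPARs, was in its exact form in 0 of the 36 windows and in 0.0396% of all windows. The FoxO core GTAAACA was in 1, a window of Ube2h, and in 3.65% of all windows. The GC box was in 87.0% of the windows of measured Ube2 genes, against 63.3% for all measured genes, and the CCAAT box in 13.0%, against 37.2%. These 23 windows belong to 15 genes, and several windows of Ube2d3 overlap. Their median content of G and C was 70.3%, against 61.7% for all measured genes, and its part in these differences was not tested. The ETS core was in all 4 windows of the 3 higher genes with a window, Ube2f, Ube2n and Ube2v1, of which the 2 windows of Ube2f overlap. It was in 1 of 4 windows of the lower genes, 2 of 15 of the genes within 0.4 and 8 of all 36 (22.2%), in 17.4% of the windows of all measured genes, and in 13.2% and 12.8% of the windows of all genes higher and lower in RXRγ mice. These matches describe the letters of the windows and are not evidence of binding. The study scored motif matrices over longer promoter regions of glucose metabolism genes and Glut1, so these exact matches cannot be set beside its motif results.

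The E2 enzyme of Lys63-linked chains and its partners went in different directions. Ube2n encodes Ubc13, the catalytic E2 that builds these non-degradative chains, and Ube2v1 and Ube2v2 encode variants without the active-site cysteine that pair with it. Ube2v1, whose product serves mainly in NF-κB signalling, had signals of 1619.8 against 1124.7 in control mice at one probe set and 951.7 against 515.1 at the other. Their mean signal was 1285.8 against 819.9, and their mean log2 ratio of 0.71 is a 1.63-fold difference. Ube2n had a signal of 543.6 against 375.2 (1.45-fold, log2 ratio 0.53). Both genes were thus higher in RXRγ mice, but the second probe set of Ube2n, under 250 on both arrays, was at 145.7 against 131.9 and differed by only 0.14 on the log2 scale. Ube2v2, whose product serves mainly in the tolerance of DNA damage, was lower, at 381.0 against 508.5 (log2 ratio -0.42), just past the threshold. Its 3 other probe sets, under 250, were also lower in RXRγ mice, at 85.2 against 152.4, 29.7 against 92.8 and 0.7 against 4.5. Ube2v1 and Ube2v2 encode closely similar proteins, and whether their probe sets read each other's transcript was not tested.

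Ube2g2 had the largest log2 ratio of the measured Ube2 genes. It encodes the E2 enzyme that builds Lys48-linked chains, the signal for the proteasome, on misfolded proteins leaving the endoplasmic reticulum. Its signal was 728.7 in RXRγ mice and 303.2 in control mice, a 2.40-fold difference (log2 ratio 1.27). Its second probe set, under 250, was at 198.0 against 91.8, at least 1.32-fold higher when a signal under 150 is taken as 150. The other E2 enzymes of this pathway did not follow it. Ube2j2, whose product is anchored in the membrane of the endoplasmic reticulum, was at 460.8 against 485.5 (log2 ratio -0.08). Ube2j1 did not reach 250, with 145.3 against 153.5 at its brighter probe set.

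The other builders of Lys48-linked chains were lower or near the level of control mice. Ube2r2, which together with Cdc34 serves the cullin-RING ligases, had a signal of 591.8 against 828.5 (1.40-fold lower, log2 ratio -0.49), and its second probe set, under 250, was at 86.4 against 116.2. Cdc34, its close relative without a Ube2 symbol, was lower as well, at 1368.9 against 1980.1 (log2 ratio -0.53). Ube2g1 was at 795.8 against 905.5 and Ube2k at 875.5 against 982.0, with log2 ratios of -0.22 and -0.17.

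Ube2b had the lowest log2 ratio of the measured Ube2 genes, although without a signal filter Ube2v2 (-1.40) and Ube2s (-1.09) lay below it. It encodes an E2 enzyme of the N-end rule, which selects proteins by their first amino acid, and of histone H2B ubiquitination. Its probe sets had signals of 3001.7 against 4734.0, 1980.2 against 3280.2 and 200.2 against 340.9. These were all lower in RXRγ mice, with log2 ratios between -0.77 and -0.66, and so was its remaining probe set, at 53.4 against 103.6. The mean signal of the 3 above 250 was 1727.4 against 2785.0, and their mean log2 ratio of -0.72 is a 1.64-fold lower level. Of the 3, that at 200.2 passed the filter only through the array of control mice, so that it could pass only by being lower in RXRγ mice. With 250 required of both arrays, the other 2 gave a mean log2 ratio of -0.69. Ube2a, which encodes a nearly identical enzyme, went the other way within the threshold, with 865.8 against 813.0 and 314.7 against 272.7 (log2 ratio 0.15). Of the N-end rule ligases that work with Ube2b, Ubr1 and Ubr2 were lower too, each on 1 probe set above 250. Ubr1 was at 237.3 against 354.7 (log2 ratio -0.58) and Ubr2 at 269.9 against 390.4 (log2 ratio -0.53). Both results depended on the signal filter. When it was dropped, the log2 ratio was 0.55 for Ubr1 and 0.24 for Ubr2. Each then had probe sets past the threshold in both directions. Ubr3, a relative of Ubr1 and Ubr2, was lower at all 3 of its probe sets above 250 (mean 1193.6 against 1634.8), whereas Ubr4 was at 361.4 against 365.0.

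The UBE2D and UBE2E enzymes, which start ubiquitin chains with many E3 ligases, differed among themselves. Ube2d1 was lower in RXRγ mice, at 1348.5 against 2052.9 on its 1 probe set (1.52-fold, log2 ratio -0.61). Ube2d2a lay on the other side of 0, with 1539.3 against 1326.8, 591.2 against 413.5 and 464.8 against 366.1 (log2 ratio 0.36), of which only the second passed 0.4. Of the 7 probe sets of Ube2d3, 6 were lower and 1 was slightly higher in RXRγ mice, from 856.7 against 1145.2 (log2 ratio -0.42) to 1665.4 against 1628.8 (log2 ratio 0.03), with a mean log2 ratio of -0.26. Of the 6 lower ones, that at 245.1 against 306.5 passed the filter only through the array of control mice. Among the 8 Ube2 genes with several probe sets above 250, Ube2d3 was the 1 whose probe sets above 250 fell on both sides of 0. Ube2e1 was at 1462.6 against 1756.0 (log2 ratio -0.26) and Ube2e3 at 599.3 against 634.0 (log2 ratio -0.08). The UBE2D proteins are nearly identical, and the probe sequences were not used here, so signal from one gene at the probe sets of another cannot be told apart from their own.

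Ube2f, an E2 enzyme that passes NEDD8 to the cullin CUL5, was higher at each of its 4 probe sets above 250. They had signals of 658.9 against 445.6, 597.4 against 472.7, 577.5 against 434.7 and 353.5 against 213.5, and 2 of the 4 carry names ending in _x_at, which marks probes shared with other transcripts. The mean signal was 546.8 against 391.6, and the mean log2 ratio of 0.51 is a 1.42-fold difference. The probe set at 353.5 passed the filter only through the array of RXRγ mice, so that it could pass only by being higher there. With 250 required of both arrays, the other 3 gave a mean log2 ratio of 0.44. The 2 remaining probe sets of Ube2f, under 250, were also higher, at 103.6 against 59.8 and 65.5 against 55.2. Uba3, the catalytic subunit of the NEDD8-activating E1 enzyme, was higher at all 3 of its probe sets, with a mean of 1018.6 against 479.5 (log2 ratio 1.08). Its partner Nae1 was not, at 466.1 against 554.7 (log2 ratio -0.25), and Nedd8 itself was at 1028.3 against 1013.3. Rnf7, the RING subunit through which Ube2f acts, was at 839.8 against 799.3, and Cul5 at 364.7 against 409.6. Ube2m, which encodes the other E2 enzyme of NEDD8, was not analysed here.

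The other measured genes stayed within the threshold. Ube2s, which extends chains for the anaphase-promoting complex in mitosis, was at 744.9 against 937.4 (log2 ratio -0.33) on a probe set whose name ends in _s_at. Its partner in mitosis Ube2c was at 22.2 against 17.4, as low as the markers of proliferating cells. Ube2h, which serves the CTLH ligase, was at 610.1 against 533.1, 472.0 against 420.7 and 342.0 against 291.4 (log2 ratio 0.20), and its remaining probe set, under 250, went the other way (58.8 against 82.3). Ube2q2 was at 327.0 against 320.6.

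**Figure D2:**
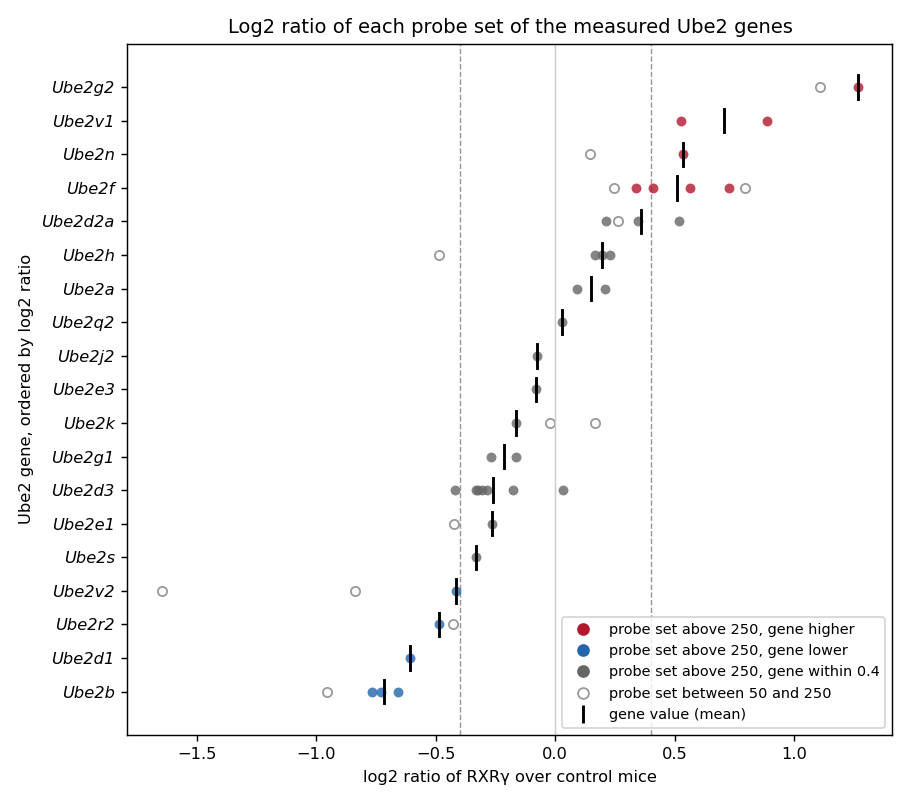
Log2 ratio of RXRγ over control mice at single probe sets of the 19 measured Ube2 genes, 1 array per genotype. Filled points are probe sets above 250 on the brighter array, coloured by whether the gene was higher (red), lower (blue) or within 0.4 (grey), open points are probe sets between 50 and 250, black ticks are the gene values and the threshold of 0.4 is dashed on both sides; the points of Ube2b lie between -0.96 and -0.66, while those of Ube2d3 lie on both sides of 0.

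The probe sets that the signal filter left out give a second view of the same 2 RNA pools, although they are not replicates. The 8 Ube2 genes past the threshold have 9 such probe sets, in 6 of the genes, and 9 of the 9 went in the direction of the gene, although 7 of the 9 were under 150 on both arrays, where no fold is given. Among all genes past the threshold, 77.1% of 1502 such probe sets did. Among the 8 Ube2 genes with several probe sets above 250, the median distance between the highest and the lowest log2 ratio within a gene was 0.21, against 0.20 over the 1213 such genes in all. Differences among Ube2 genes smaller than this, such as those of the 6 genes within 0.2 of 0, are therefore no larger than the disagreement between probe sets of 1 gene.

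The 14 Ube2 genes without a probe set above 250 ranged from 6.0 to 248.7 at their brightest. The filter narrowly passed a probe set of Ube2a, at 314.7 against 272.7, and a probe set of Ube2d3, at 245.1 against 306.5, and left out Ube2z, at 248.7 against 115.5, and a probe set of Ube2d2a, at 230.1 against 191.9. Ube2z, which encodes an E2 enzyme that takes ubiquitin from the E1 enzyme UBA6, thus had at this probe set a signal at least 1.66-fold that of control mice, counting a signal under 150 as 150, but did not count as measured. Its dimmer probe sets disagreed, at 84.7 against 35.6 and 1.7 against 14.8. Ube2w, which attaches ubiquitin to the first amino acid of proteins, was at 206.2 against 135.0 at its brightest probe set (at least 1.37-fold). Ube2o, a large enzyme that acts as both E2 and E3, was at 136.8 against 53.1 and Ube2q1 at 138.3 against 114.7, both under 150 on both arrays. The remaining genes besides Ube2j1 had signals of at most 117.3, among them Ube2l6, the E2 enzyme of the interferon-induced modifier ISG15 (33.0 against 19.8), Ube2e2 (83.2 against 63.1) and Ube2t, of the Fanconi anaemia pathway (55.0 against 35.5). The transcribed pseudogene Ube2d-ps was also in this range, at 117.3 against 92.4.

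The other genes of the ubiquitin pathway were placed in 6 lists, with 124 genes named alone by a probe set, of which 76 were measured. Of the 76, 5 were higher (6.58%) and 15 were lower (19.7%), against 16.8% and 20.1% of all genes, with a median log2 ratio of -0.10. Of the 5 higher genes, Itch, Usp25 and Usp28 passed the filter only through the array of RXRγ mice, so that they could pass only by being higher there, and with 250 required of both arrays 2 of the 5 were left, Uba3 and Stub1. Of the 15 lower genes, Ubr1 passed only through the array of control mice. The 4 measured genes of ubiquitin and ubiquitin-like proteins, namely Nedd8, Sumo3, Ufm1 and Fau, all stayed within 0.4. Of 3 measured E1 genes, Uba3 was higher, and of 6 measured E2 genes without a Ube2 symbol, Cdc34 was lower.

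Among NEDD8 targets and cofactors, 5 of 18 measured genes were lower (27.8%, against 20.1% of all genes) and 0 were higher, with a median log2 ratio of -0.29 against -0.04 over all genes. Dcun1d1, which helps to attach NEDD8 to cullins, was at 357.8 against 585.2, and Cul3, a cullin scaffold, at 895.2 against 1344.5, lower at all 4 of its probe sets above 250. Cops3, Cops7a and Cops2, subunits of the COP9 signalosome that removes NEDD8 from cullins, had log2 ratios of -0.60, -0.51 and -0.49. Without a signal filter Cops3 was at 0.68, with probe sets past 0.4 in both directions. The other measured cullins, Cul1, Cul2, Cul4a and Cul5, stayed within 0.4.

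Of 22 measured ubiquitin ligases, 6 were lower (27.3%, against 20.1% of all genes) and 2 were higher (9.09%, against 16.8%). The muscle ligases lay furthest from 0, with Trim63 at 1070.0 against 2636.2 and Trim54, which encodes MuRF3, at 1137.7 against 2496.9, and with Fbxo32 at 182.3 against 1441.5, 264.4 against 1962.5 and 527.2 against 839.4. These probe sets of Fbxo32 differ widely, with log2 ratios of -2.98, -2.89 and -0.67 (mean -2.18). Stub1, the chaperone-linked ligase CHIP that works with UBE2D and Ubc13, was just past the threshold, at 1356.9 against 917.3 at one probe set (log2 ratio 0.56) and with a log2 ratio of 0.26 at the other (mean 0.41). With median scaling Stub1 was at 0.31 and with a pseudocount at 0.39, both within the threshold. Itch, of the HECT family, was at 293.5 against 157.6. Without a signal filter its log2 ratio was 0.12, with probe sets past 0.4 in both directions. Of 23 measured deubiquitinating enzymes, which remove ubiquitin, and SUMO proteases (Senp2, Senp3 and Senp6), 2 were higher (8.70%, against 16.8% of all genes) and 3 were lower (13.0%, against 20.1%). The higher ones were the related genes Usp28 (430.2 against 175.5) and Usp25 (467.9 against 232.7). The lower ones were Usp16 (273.6 against 423.8), Usp13 (618.7 against 859.1) and Otud4 (mean log2 ratio -0.46). Otud4 was at 742.0 against 927.4 at its brighter probe set (log2 ratio -0.32) and 252.0 against 382.6 at the other (log2 ratio -0.60). With its brighter probe set alone, and without a signal filter (-0.38), it was within the threshold.

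**Figure D3:**
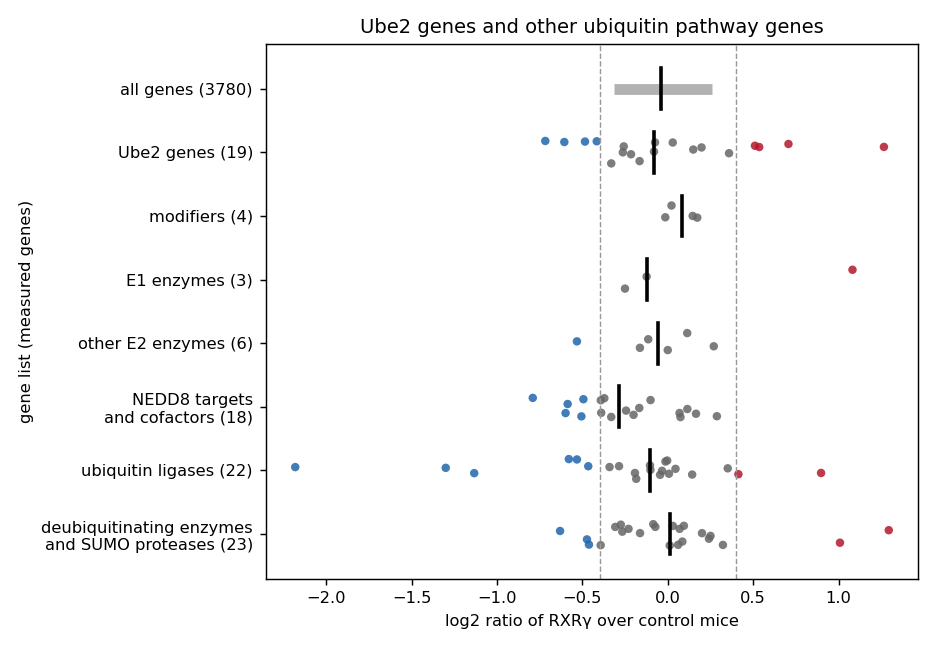
Log2 ratio (RXRγ over control mice, horizontal axis) for the measured genes of the Ube2 family and of 6 other lists, each point being a gene with a vertical offset that has no meaning, with list medians as black bars and the middle 50% of all 3780 genes as a grey bar from -0.32 to 0.26. Red and blue points are genes past the dashed lines at 0.4 in either direction; the median of the NEDD8 targets and cofactors lies at -0.29, against -0.04 for all genes, and the point furthest to the left is Fbxo32, whose 3 probe sets average -2.18.

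The 8 Ube2 genes past the threshold kept their direction under the 12 alternatives in processing, although some of these cannot change the value of some genes. Ube2d1, which has 1 probe set, could move only with median scaling, quantile normalization, intensity-dependent centring and a pseudocount. Under the other alternatives it stayed at -0.61 by construction. Ube2b, Ube2d1, Ube2r2, Ube2f, Ube2g2 and Ube2v1 stayed past 0.4 in all 12. Ube2n stayed past it in 11 and was at 0.34 without a signal filter. Ube2v2 stayed past it in 9, and was at -0.39 to -0.40 with quantile normalization, intensity-dependent centring and a pseudocount. Of the other genes, Ube2s was past the threshold with median scaling (-0.43), and without a filter Ube2s was at -1.09 and Ube2j2 at 0.45.

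**Figure D4:**
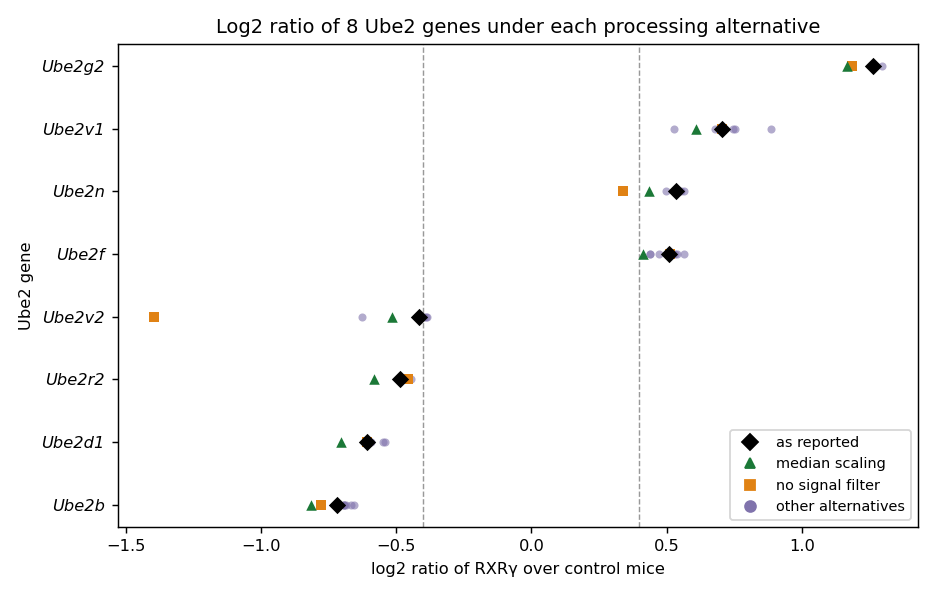
Log2 ratio of RXRγ over control mice of the 8 Ube2 genes past the threshold, as reported (black diamonds), with median scaling (green triangles), without a signal filter (orange squares) and under the 10 other alternatives (purple points). The threshold of 0.4 is dashed on both sides; no gene crosses 0, and Ube2v2 moves most, to -1.40 without a filter.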

How the data were processed

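Pooled skeletal muscle RNA of each genotype was measured on 1 Affymetrix MG430 array. The deposited values are linear intensity values of probe sets, which the authors obtained with the Affymetrix Gene Chip software. The trimmed mean without 2% at each end is 100.0 on both arrays, so they had been scaled, by a method not given in the sources used here. Present and absent calls were not used here.

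Of 45101 probe sets, 34958 are named for 1 gene, 932 for several and 9211 are not listed in the platform annotation; only the first were used. The values of the signal filter (250) and the threshold (0.4) were taken from the methods of the study, which used the threshold for increased genes only. Its use for lower genes and the filter on the brighter array were choices made here. Log2 ratios were taken without a pseudocount. A gene counted as neither higher nor lower if its probe sets passed 0.4 in both directions. All measured Ube2 genes were named, the 5 brightest of the others, up to 4 genes past the threshold of each further list and partners of the Ube2 genes; further genes were named after their values were seen. Members, lists and alternatives were chosen with earlier results of these data known. The steps were checked on simulated data. Quantile normalization and loess centring used limma 3.58.1 in R 4.3.3, and all else pandas 2.3.3, numpy 2.4.6 and matplotlib 3.10.9 in Python 3.11.15.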

Additional observations from a re-analysis of the deposited data

How the results depend on the processing

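Of 225 log2 ratios of single Ube2 genes under the 12 alternatives, 220 moved by less than 0.20, the median span between probe sets of 1 gene, 5 moved by more and 0 of those past the threshold changed sign. Many of the 220 did not move at all, since changes of the filter or of the probe sets often leave a gene with the same probe sets. Without a signal filter 10 Ube2 genes passed the threshold upwards and 5 downwards (30.3% and 15.2%, against 28.6% and 22.6% of all genes). The 33 genes then had a median log2 ratio of 0.15 rather than -0.08, and the median of all genes moved too, from -0.04 to 0.05. At a threshold of 1 only Ube2g2 passed (1 higher, 0 lower of 19), against 191 higher and 155 lower of all 3780 genes. Counting probe sets gave 8 higher and 7 lower of 37, against 953 and 1155 of 5538 over all genes. The counts of the other pathway genes also moved, as did the number of them measured. As reported, 5 were higher and 15 lower of 76. With the filter lowered to 150, 9 of 90 were higher, against 18.3% of all genes. With it raised to 500, 2 of 42 were higher (16.4% of all genes), and with 250 required of both arrays 2 of 68 (12.1% of all genes). Without a filter 14 were higher and 27 lower of 124. At a threshold of 1, 3 were higher and 3 lower of 76, and counting probe sets gave 11 and 23 of 107. With median scaling, which shifted the median of all genes by -0.11, 23 of 76 were lower, against 26.6% of all genes. No paired analysis was possible because each genotype has 1 array, and no replicate could be left out. The depth of an array is limited by its signal over background, and 14 of the 33 Ube2 genes were too dim to be measured.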

Other observations

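Ube2l3, which encodes an E2 enzyme for HECT ligases and for ligases such as parkin, is not among the 33 genes, because each of its 4 probe sets is named for 5 genes. Their signals were 1287.8 in RXRγ mice against 1482.0 in control mice, 1157.7 against 1187.9, 498.8 against 666.5 and 628.1 against 622.2. The log2 ratios ran from -0.42 to 0.01, and which of the 5 genes they report cannot be told apart.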
